A study of Homo sapiens with 4 samples.

Results

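The regions described here are the H3K27ac peaks that the colon cancer line COLO-205 shared with the prostate cancer line DU-145 and with neither ovarian cancer line, OVCAR-3 or SKOV-3. A COLO-205 peak was a member when it overlapped a DU-145 peak by at least 1 base and overlapped no peak of either ovarian list. The members were thus chosen by the overlap of called peaks, and so by the q-values behind the calls in all 4 lines. This held for 4202 of the 85576 COLO-205 peaks (4.91%), out of 251138 peaks in the 4 lists together. Read from the other side, 3876 of the 75468 DU-145 peaks (5.14%) overlapped a COLO-205 peak and no ovarian peak.

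The study asked whether non-coding mutations predicted to gain a function lie in active chromatin, and it measured the mark in 4 established human cancer cell lines. COLO-205 is labelled as a colon line, DU-145 as a prostate line, and the other pair, OVCAR-3 with SKOV-3, as ovarian lines. Chromatin immunoprecipitation used an antibody against acetylated lysine 27 of histone H3, with 1 library per line. The chromatin came from cells grown in dishes, and the labels give no treatment, time course or genetic change. Each line stands for 1 tumour, and with 1 library per line no difference between lines has a replicate check, so no test of a difference between groups was possible and the values below are descriptions.

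H3K27ac is laid down on nucleosomes beside active promoters and active enhancers, largely by the acetyltransferases p300 and CBP, and it is removed by deacetylases. Promoter acetylation tends to be shared by many cell types, whereas acetylation at enhancers differs between tissues and follows the transcription factors that a cell expresses. A peak shared by a colon and a prostate line and missing from ovarian lines can lie at a promoter or at a distal element, and it can lie beside an ovarian peak at the same gene.

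Sequences at the summits of several members show the kinds of DNA these peaks covered. Each is the plus strand of GRCh37 over 120 bases around the COLO-205 summit. The first pair belongs to the leading promoter members by strength in both lines, in an intron of IGF1R and in one of BAHCC1, and the second pair to promoter members at the WNT target genes TCF7 and SP5, which were chosen after their values were seen. Capitals mark CpG dinucleotides, the sites of DNA methylation that are dense in active CpG-island promoters.
IGF1R, chr15:99193499-99193618: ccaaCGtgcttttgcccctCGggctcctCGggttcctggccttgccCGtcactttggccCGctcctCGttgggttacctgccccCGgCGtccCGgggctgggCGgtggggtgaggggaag
BAHCC1, chr17:79370689-79370808: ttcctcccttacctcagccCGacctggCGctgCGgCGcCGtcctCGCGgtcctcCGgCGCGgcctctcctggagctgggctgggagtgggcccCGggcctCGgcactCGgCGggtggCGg
TCF7, chr5:133449364-133449483: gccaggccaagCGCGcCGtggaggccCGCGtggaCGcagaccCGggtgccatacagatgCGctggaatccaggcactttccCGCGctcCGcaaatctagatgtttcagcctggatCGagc
SP5, chr2:171570860-171570979: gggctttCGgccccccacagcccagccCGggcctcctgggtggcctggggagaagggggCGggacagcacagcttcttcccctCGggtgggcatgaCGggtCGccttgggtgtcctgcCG

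The next windows come from members farther than 1 kb from a protein-coding start and are shown because they hold the letters TGANTCA, the binding motif of AP-1 (dimers of FOS and JUN proteins), in capitals. The FOXP4 window belongs to the distal member of the highest strength in both lines, and the windows nearest CCL25 and AFAP1 come from the next such members with a match.
FOXP4, chr6:41549150-41549269: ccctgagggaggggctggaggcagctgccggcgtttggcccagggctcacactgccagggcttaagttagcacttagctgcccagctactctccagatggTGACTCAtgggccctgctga
CCL25, chr19:8122928-8123047: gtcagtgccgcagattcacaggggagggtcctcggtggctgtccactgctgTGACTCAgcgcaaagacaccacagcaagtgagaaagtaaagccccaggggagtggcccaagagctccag
AFAP1, chr4:7755130-7755249: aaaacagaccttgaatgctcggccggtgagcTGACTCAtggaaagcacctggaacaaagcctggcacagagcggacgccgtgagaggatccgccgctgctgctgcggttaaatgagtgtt

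The IGF1R, BAHCC1, TCF7 and SP5 windows held 10, 15, 12 and 7 CpG dinucleotides, and the FOXP4, CCL25 and AFAP1 windows held 2, 3 and 8. Members were also read for a repeat word, CCTGTAATCCCA, the most frequent 12-letter word with all 4 bases on chromosome 22, with 8021 copies on the plus strand of that chromosome. These letters are part of the consensus of the Alu family of interspersed repeats.

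The libraries differed in the number of peaks more than in depth. The lists held 75468 to 85576 peaks for COLO-205, DU-145 and OVCAR-3 and 14001 for SKOV-3, and the ChIP tags solved from the peak values ranged from 2.24e+07 in SKOV-3 to 3.6e+07 in DU-145. A peak missing from the SKOV-3 list is therefore weaker evidence of a missing mark than one missing from the OVCAR-3 list. Without the SKOV-3 list the members numbered 4551. A peak not listed was not detectable at the q-value of 0.001 that was used, and it was not shown to be absent.

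Promoter peaks at marker genes were checked against the labels. A peak lay within 1 kb of a start of 7 of 15 colon markers in COLO-205, while DU-145 had 1 such gene, OVCAR-3 had 2 and SKOV-3 had 1. The intestinal factor CDX2 had a promoter peak with a −log10 q of 19.2 in COLO-205 and none in the other lists. For the 12 prostate markers COLO-205 had 4, DU-145 and OVCAR-3 had 5 each and SKOV-3 had 1. No promoter peak of any line was listed at KLK2, and KLK3 had none in DU-145, so the list did not set DU-145 apart. The 12 ovarian and Müllerian markers had promoter peaks at 7, 7, 10 and 5 genes in the same order, led by EMX2 with a −log10 q of 270.3 in OVCAR-3. Of 10 leukocyte markers, 2 were marked in COLO-205, 2 in DU-145 and none in the ovarian lines, and PTPRC, CD3E and CD3D had no promoter peak in any list.

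The members were peaks of moderate strength in both lines. Fold enrichment, the tag pileup at the summit over the local background, had a median of 4.64 in COLO-205, with quartiles of 3.94 and 5.42, beside 4.73 over all COLO-205 peaks. The strongest DU-145 peak that each member overlapped had a median fold of 4.35, with quartiles of 3.69 and 5.11, beside 4.50 over all DU-145 peaks. The median −log10 q was 7.92 in COLO-205 and 8.61 in DU-145, beside list medians of 8.35 and 9.17. Both measures took part in the choice of members through the calling threshold, so they are given as description. At the summit, members held a median of 23 tags in COLO-205 (quartiles 19 and 29) and 28 in DU-145 (quartiles 22 and 39). The members were 273 bases wide at the median, and the overlapped DU-145 peaks 411 bases.

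The order of strength among the members differed between the lines. Across the members, Spearman's rho between the lines was 0.0613 for −log10 q and 0.221 for fold enrichment (n = 4202 regions, which share 1 library per line and the base composition of the site). Over all 14889 COLO-205 peaks that overlapped a DU-145 peak, rho was 0.330 and 0.223. The rule chose the members on these values and left out peaks shared with the ovarian lines, so the rho of the members is a description of the chosen set alone. Both peaks lay above the median −log10 q of their own list at 909 members (21.6%), and both lay in the top decile at 25 (0.595%). The member had the higher percentile in COLO-205 at 2067 regions (49.2%). The highest −log10 q was 104 on the COLO-205 side and 140 on the DU-145 side.

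**Figure D1:**
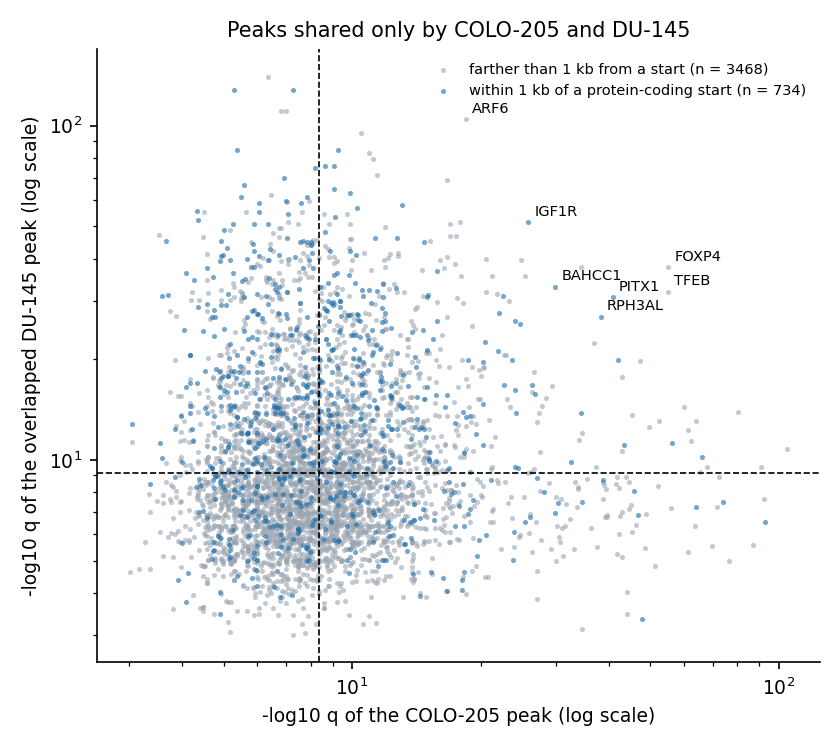
The −log10 q of each of the 4202 members in COLO-205 (horizontal, log scale) is plotted against that of the strongest overlapped DU-145 peak (vertical, log scale), blue for members within 1 kb of a protein-coding start and grey for the rest. Dashed lines mark the median of each whole list, and 909 members lie above both, with IGF1R, FOXP4, TFEB, PITX1, BAHCC1, RPH3AL and ARF6 labelled among them.

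Most members matched a DU-145 peak over most of their length. The overlap had a median of 235 bases, which was 93.1% of the COLO-205 peak at the median, and 3553 members were covered by at least 50%. The summits of both lines lay a median of 101 bases apart, with quartiles of 39 and 244. Each of 4111 members overlapped 1 DU-145 peak and 91 overlapped more, and 4036 distinct DU-145 peaks were the strongest overlapped, so some members share a DU-145 peak.

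The rule has an edge on both sides. Members that overlapped a DU-145 peak by 50 bases or fewer numbered 119, with a median −log10 q of 7.04 in COLO-205, and 107 COLO-205 peaks in no other list lay within 50 bases of a DU-145 peak, with a median of 7.35. A further 10687 COLO-205 peaks overlapped DU-145 and also an ovarian peak, of which 56 by 50 bases or fewer (median 6.70). Members within 50 bases of an ovarian peak numbered 37, with a median of 6.27. Within 350 bases there were 356 (8.47%) and within 1000 bases 783 (18.6%), and the nearest ovarian peak lay a median of 8342.5 bases away.

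Promoters made up a minority of the members. A protein-coding start lay within 1 kb of the edge of 734 members, which was 17.5% (exact Clopper-Pearson 95% interval 16.3 to 18.7, counting error only), beside 14.3% of all COLO-205 peaks, 13.3% of those shared only with OVCAR-3 and 4.20% of those in no other list. Among peaks also held by both DU-145 and OVCAR-3 but not SKOV-3 the share was 63.4%, and among peaks in all 4 lists 84.7%. Read as a rate, 5.98% of the 12273 COLO-205 promoter peaks and 4.73% of the 73303 distal peaks were members. The comparison with the whole list turned with the line that was counted. The DU-145 peaks of the same kind lay at promoters in 15.6%, beside 22.1% of all DU-145 peaks. With ovarian peaks widened by 350 bases the members' share was 14.6%, so its distance from the share of all COLO-205 peaks rests on members that lie close beside an ovarian peak.

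The members lay nearer to genes than COLO-205 peaks did as a whole. The median distance to the nearest protein-coding start was 14057 bases for the members, 19539 for peaks shared only with OVCAR-3, 25122.5 for all COLO-205 peaks and 34791.5 for those in no other list. Beyond 100 kb lay 8.31% of the members, beside 20.5% of all COLO-205 peaks. The summit fell in an intron of a protein-coding gene at 2546 members (60.6%, beside 46.8% of all COLO-205 peaks), in a coding exon at 228 (5.43%), in an untranslated region at 199 (4.74%), in a lncRNA gene at 342 (8.14%) and in none of these at 887 (21.1%, beside 31.7%).

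**Figure D2:**
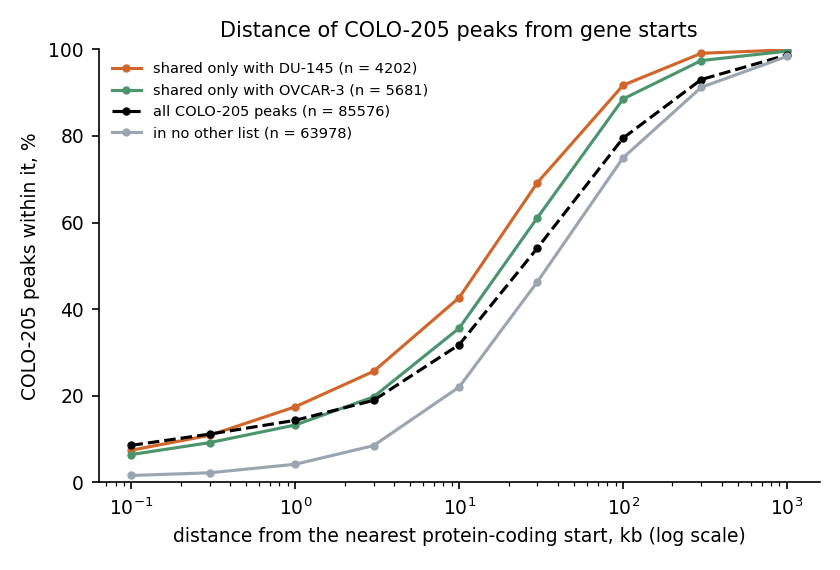
The share of COLO-205 peaks (vertical, percent) within a given distance of the nearest protein-coding start (horizontal, kb, log scale) is drawn for 4 sets of peaks. The members reach 42.7% within 10 kb and 91.7% within 100 kb, and their curve lies above the other 3 from 1 kb on.

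The members were spread unevenly over the chromosomes. Chromosome 5 held 589 of them (14.02%), beside 7.40% of all COLO-205 and 7.31% of all DU-145 peaks. Chromosome 14, which is dense in DU-145 peaks (14.3% of that list), held 439 (10.4%), beside 2.36% of all COLO-205 peaks, and 21.7% of the COLO-205 peaks of this chromosome were members. Chromosome 13, which is dense in COLO-205 peaks (14.1%), held 58 (1.38%), beside 0.330% of the DU-145 list. Chromosome 17 held 409 members (9.73%), chromosome 9 held 399 (9.50%) and chromosome 10 held 302 (7.19%). The part of peak density in these shares was not tested.

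**Figure D3:**
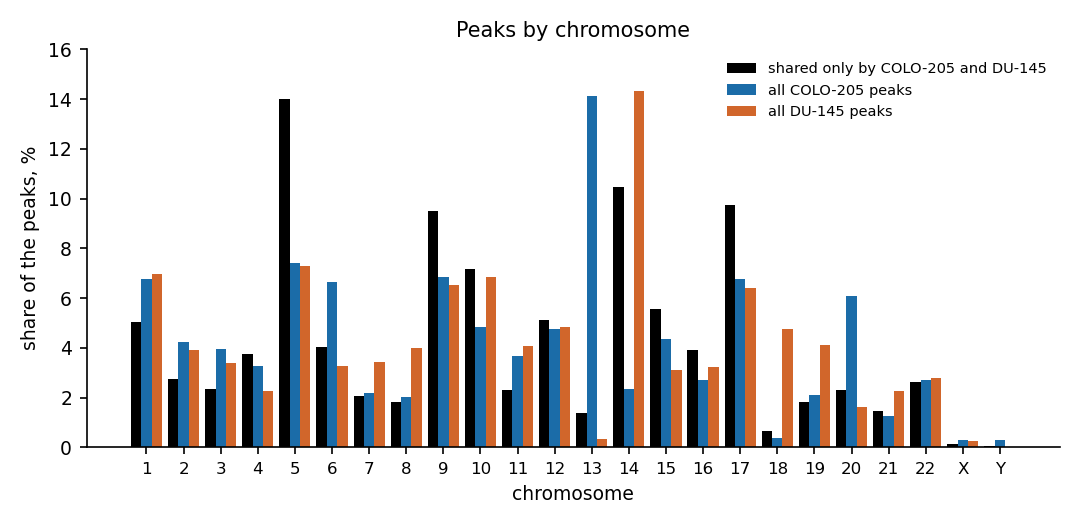
Bars give the share (vertical, percent, from 0) of the 4202 members (black), of all COLO-205 peaks (blue) and of all DU-145 peaks (orange) on each chromosome. The black bar is above both others on chromosomes 4, 5, 9, 10, 12, 15, 16 and 17, and on chromosomes 13 and 14 the COLO-205 and DU-145 bars stand far apart.

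A member lay in 954 windows of 1 Mb, and the 108 windows with 10 or more held 1844 members (43.9%), beside 16.4% of all COLO-205 and 24.3% of all DU-145 peaks. These windows were picked as the fullest in members, and the 108 windows fullest in COLO-205 peaks held 30.8% of that list. The window from 1 to 2 Mb of chromosome 5 held 60, most of them nearest LPCAT1, and the same window held 444 COLO-205 and 122 DU-145 peaks but 23 OVCAR-3 and 2 SKOV-3 peaks. The window from 42 to 43 Mb of chromosome 6 held 53, among 572 COLO-205 and 99 DU-145 peaks. In the window from 31 to 32 Mb of chromosome 14, 29 of the 35 COLO-205 peaks were members (82.9%), and DU-145 had 516 peaks there. The 12 fullest windows held 403 members (9.59%).

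Assigned to the nearest protein-coding start within 100 kb, 3853 members fell to 2279 genes (11.5% of 19785 protein-coding genes), and 112 genes had 5 or more. LPCAT1, an acyltransferase of phosphatidylcholine remodelling, had the most. Its 33 members spanned 110.8 kb with COLO-205 folds of 2.92 to 6.30, and COLO-205 had 60 peaks nearest this gene in all, DU-145 had 54, OVCAR-3 had 4 and SKOV-3 had 1. Its promoter carried a peak in every line, highest in DU-145 (−log10 q 79.4), then SKOV-3 (24.4), COLO-205 (16.1) and OVCAR-3 (11.8), so the ovarian lines had the promoter peak and few of the others.

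CMIP, an adaptor protein gene, came next with 29 members over 261.2 kb, 27 of them in introns of protein-coding genes. DU-145 had 136 peaks nearest CMIP, COLO-205 had 55, OVCAR-3 had 7 and SKOV-3 had 3, and its promoter was marked in all 4 lines. ZFYVE28 had 11 members over 132.8 kb and a promoter peak in COLO-205 (−log10 q 15.0) and DU-145 (16.5) and in neither ovarian list. NKD2, an antagonist of WNT signalling that binds Dishevelled, had 12 members over 46.3 kb. COLO-205 had 66 peaks nearest NKD2, DU-145 had 17, OVCAR-3 had 6 and SKOV-3 had 0.

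The other genes with the most members had promoter peaks that reached the ovarian lines, with the exception of TBC1D3. SHB, an SH2-domain adaptor, had 14 members, and all peaks nearest it numbered 27 in COLO-205, 80 in DU-145, and 33 and 13 in the ovarian lines OVCAR-3 and SKOV-3. BID, a BH3-only protein of the apoptotic pathway, had 12 with counts of 25, 88, 22 and 1 in the same order. HPCAL1, a neuronal calcium sensor, had 12 with counts of 19, 65, 2 and 0. TRERF1, a zinc finger regulator of steroid synthesis genes, also had 12, with counts of 105, 14, 3 and 1 and the widest fold range, from 4.46 to 19.7 in COLO-205. PXN, which encodes the focal adhesion protein paxillin, had 11 with counts of 25, 27, 13 and 8. TBC1D3 had 15 with counts of 20, 33, 0 and 0, and as a family of near-identical copies it is uncertain. COLO-205 thus had fewer peaks than DU-145 at SHB, BID, HPCAL1, CMIP and TBC1D3 and more at TRERF1, NKD2 and ZFYVE28.

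The promoter members of the highest strength in both lines were led by IGF1R, the receptor of insulin-like growth factors. The member chr15:99191813-99193844 had a fold of 6.13, a −log10 q of 25.9 and 60 tags at its summit in COLO-205. The DU-145 peak there had a fold of 8.78, a −log10 q of 51.6 and 90 tags. Its summit lay 2458 bases from the COLO-205 summit and outside the member, so these values describe overlapping peaks and not the same position. An OVCAR-3 peak lay 589 bases away, and the strongest promoter peak of IGF1R in OVCAR-3 had a −log10 q of 11.5, so the gene's promoter was marked in 3 lines although the member itself was not shared with OVCAR-3.

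BAHCC1, a chromatin protein with a BAH domain, had a member at chr17:79369780-79371597 whose values were close in both lines. Its fold was 6.12 and its −log10 q 29.9 in COLO-205, and 6.02 and 33.0 in DU-145, with summits 787 bases apart. No promoter peak was listed in either ovarian line, and the nearest ovarian peak lay 1954 bases away in SKOV-3. RPH3AL, an effector of Rab proteins in exocytosis, had a fold of 10.96 in COLO-205 and 6.08 in DU-145 at chr17:201883-202672, with the nearest OVCAR-3 peak 32663 bases away.

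PITX1, a homeobox factor of hindlimb and pituitary development, had a member at chr5:134368457-134369035 in an intron of the gene. The fold was 10.6 with a −log10 q of 40.8 in COLO-205, and 6.13 with 30.7 in DU-145. A SKOV-3 peak lay 639 bases away and the nearest OVCAR-3 peak 123091 bases away. With 9 assigned members, PITX1 had the most in its list of endoderm and gut factors.

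Other leading promoter members lay at genes marked only in COLO-205 and DU-145. LRRC61 had a −log10 q of 22.6 in COLO-205 and 31.0 in DU-145. ETFB, a subunit of the electron transfer flavoprotein, had 24.7 and 25.5. ZNF232 had 20.4 and 22.5. CGAS, the cytosolic DNA sensor that makes cyclic GMP-AMP, had 15.8 and 26.1. The 4 genes had no ovarian promoter peak in either list. TSPO, an outer mitochondrial membrane protein, had 24.1 and 26.1 and a SKOV-3 peak 84 bases away. SLC4A2, an anion exchanger, had 21.99 and 21.1 at the member, while its promoter carried stronger peaks in DU-145 (66.6) and OVCAR-3 (39.4). PPP1R18 had 15.8 and 36.8 at the member and promoter peaks in every line. Of these 12 leading promoter members, those of IGF1R, PITX1, TSPO, PPP1R18 and SLC4A2 lay at promoters with an ovarian peak, and the other 7 did not.

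Among the distal members, the strongest in both lines lay in an intron of FOXP4, a forkhead factor, at chr6:41548968-41549675, 34582 bases from the nearest start. Its fold was 9.41 with a −log10 q of 55.1 and 92 tags in COLO-205, and 8.22 with 37.8 and 68 tags in DU-145. The nearest ovarian peak was 21071 bases away in OVCAR-3. FOXP4's promoter was marked in all 4 lines, with a −log10 q of 150.2 in COLO-205 and 28.6 in SKOV-3 as the highest and the lowest.

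TFEB, the factor that switches on lysosome and autophagy genes, had a member of 2747 bases at chr6:41650261-41653007. The fold was 10.9 with a −log10 q of 54.9 in COLO-205 and 5.15 with 31.9 in DU-145, with summits 1302 bases apart, and the nearest ovarian peak lay 21266 bases away. A member in an intron of ZNF710 had folds of 7.11 and 7.24 and lay 193 bases from an OVCAR-3 peak. A member near MZB1 had folds of 6.41 and 6.35 and lay 1174 bases from an OVCAR-3 peak.

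The CMIP member at chr16:81616743-81617028 had folds of 8.54 and 9.99 with summits 1 base apart. A member 3687 bases upstream of NKD2 had folds of 5.30 and 5.69, with the nearest ovarian peak 22891 bases away. A member in the lncRNA gene LINC01588, nearest ARF6, had a fold of 6.24 in COLO-205 and 14.8 in DU-145 with summits 1204 bases apart, the most unequal of the 12 distal members on the DU-145 side. TNS4, a tensin of epithelial cells, had a member at 17254 bases with folds of 5.42 and 5.87 and the nearest ovarian peak 28310 bases away. The members near PTP4A2 (folds of 5.80 and 5.95), PTP4A1 (5.68 and 7.05) and TRIM7 (4.89 and 5.97) lay 1388, 101 and 364 bases from an OVCAR-3 peak. Strength in both lines thus came with an ovarian peak close by at several of these regions and with none within 20 kb at FOXP4, TFEB, NKD2 and TNS4.

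At the level of genes, 686 of 19785 protein-coding genes (3.47%) had a member within 1 kb of a start. Of the 686, 329 (48.0%) had no ovarian peak within 1 kb of any start, and 357 (52.0%) had an OVCAR-3 or SKOV-3 peak elsewhere in that distance. Counting promoters rather than peaks, 434 genes (2.19%) had a promoter peak in COLO-205 and in DU-145 and in neither ovarian line. The same count was 487 for COLO-205 and OVCAR-3 alone (2.46%) and 2120 for DU-145 and OVCAR-3 alone.

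Targets of WNT signalling were the list with the largest share of genes with a promoter member among the 18 lists counted. When WNT ligands bind, β-catenin enters the nucleus and joins TCF and LEF factors at these genes, many of which feed back on the pathway, and the program drives intestinal crypt cells. Of 26 genes, 7 had a promoter member (26.9%, beside 3.47% of all genes) and 10 had an assigned member (38.5%, beside 11.5%). The promoters of 6 genes (23.1%, beside 2.19%) were marked in COLO-205 and DU-145 and in neither ovarian line, namely BMP4, NKD1, NKD2, SP5, TCF7 and TNFRSF19. COLO-205 had a promoter peak at 20 of the 26 genes, DU-145 at 17, OVCAR-3 at 15 and SKOV-3 at 7, and the 6 were 30.0% of the 20, beside 4.63% of all promoters marked in COLO-205.

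TCF7, a DNA-binding partner of β-catenin, had the strongest of these promoter peaks, and 5 members were assigned to it. Its highest promoter −log10 q was 45.7 (fold 9.99) in COLO-205 and 15.8 (fold 4.00) in DU-145, at different members. The member of 45.7 overlapped a DU-145 peak of 8.10 (fold 3.58), and the DU-145 peak of 15.8 overlapped a member of 26.9. SP5, a zinc finger repressor of other WNT targets, had 34.4 (fold 7.67) in COLO-205 and 13.8 (fold 4.47) in DU-145. NKD2 had 22.1 and 27.6, with folds of 6.35 and 6.07. The CpG-marked windows at TCF7 and SP5 above lie in the first member of each gene.

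BMP4, a ligand of the BMP pathway, had 23.9 in COLO-205 and 12.0 in DU-145, also at different members. The member of 23.9 overlapped a DU-145 peak of 5.02, and the DU-145 peak of 12.0 overlapped a member of 19.6. TNFRSF19, also called TROY, a receptor of the TNF family, had 16.7 and 9.37. NKD1 had 7.87 and 13.3, without a promoter member as its peaks within 1 kb did not overlap. COLO-205 had the higher −log10 q and fold for TCF7, SP5, BMP4 and TNFRSF19, and DU-145 had both higher for NKD1. For NKD2 DU-145 had the higher −log10 q and COLO-205 the higher fold, and −log10 q is not scaled between libraries of different depth.

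The other WNT targets with a promoter member were marked elsewhere as well, or in COLO-205 alone. ASCL2, a basic helix-loop-helix factor of intestinal stem cells, had a COLO-205 peak of 4591 bases with a fold of 9.47, and the DU-145 peak it touched had a fold of 2.30 and a −log10 q of 3.36, near the threshold and beyond 1 kb of the start. NOTUM, a secreted enzyme that inactivates WNT ligands, had 8.04, 6.40 and 7.63 in COLO-205, DU-145 and OVCAR-3. The feedback gene AXIN2 had a promoter peak in every line, highest in OVCAR-3 (151.5) before COLO-205 (43.2), then DU-145 (27.4) and last SKOV-3 (11.8), and no member.

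NKD2 and TCF7 lie on chromosome 5, TNFRSF19 on chromosome 13 and BMP4 on chromosome 14, where peaks are dense in one or both lines. With chromosomes 13 and 14 left out, 5 WNT targets had a promoter member. None of the promoter members of the list held the repeat word at the summit. Among COLO-205 peaks shared only with OVCAR-3, 3 WNT targets had a promoter peak of that kind (11.5%, beside 3.5% of all genes) and 8 an assigned one (30.8%, beside 11.7%). The difference between both sets of peaks could not be tested, and the list was chosen with earlier results of these data known.

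**Figure D4:**
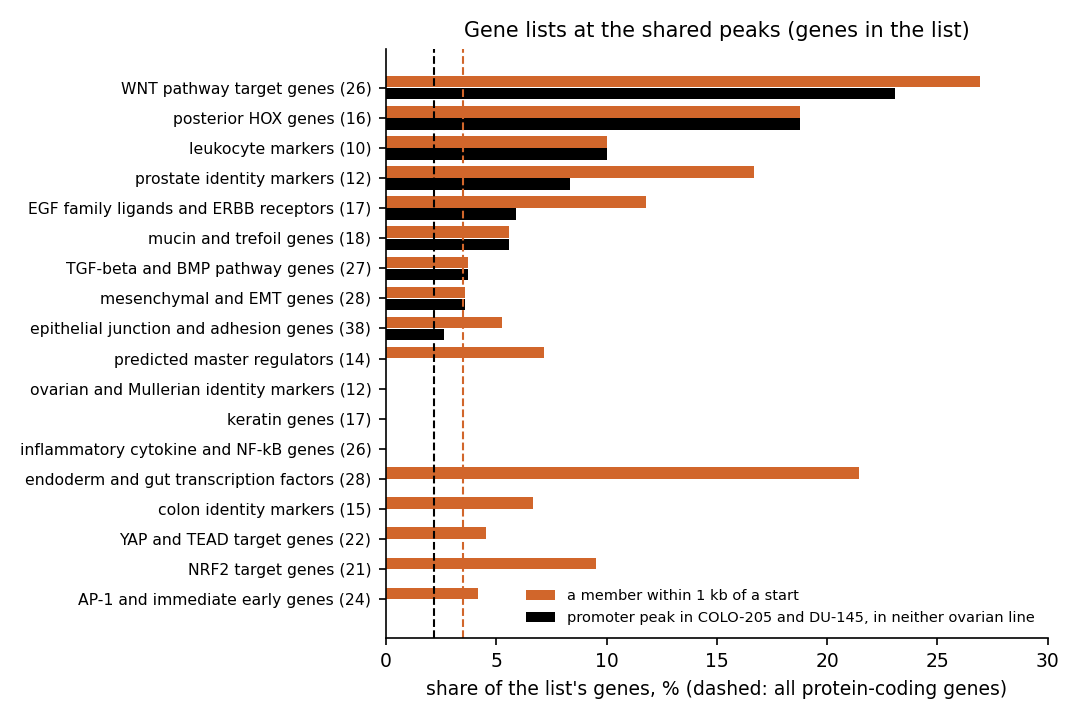
For each of 18 gene lists, with the number of genes in parentheses, orange bars give the share of genes (horizontal, percent) with a member within 1 kb of a start and black bars the share whose promoter was marked in COLO-205 and DU-145 and in neither ovarian line. Dashed lines show the same shares over all 19785 protein-coding genes, 3.47% and 2.19%, and the WNT targets reach 26.9% and 23.1%.

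Posterior HOX genes specify the hind part of the body axis and remain active in gut and urogenital tissues. Of 16 genes, 3 had a promoter member (18.8%, beside 3.47% of all genes), and 3 promoters (18.8%, beside 2.19%) were marked in COLO-205 and DU-145 alone, HOXA11, HOXC9 and HOXC10. HOXA11 had a highest promoter −log10 q of 10.5 in COLO-205 and 15.9 in DU-145, HOXC9 had 8.60 and 36.0, and HOXC10 had 4.13 and 18.5. DU-145 was higher at each. The HOXC9 member overlapped a DU-145 peak of 28.5, not the one of 36.0. HOXB9 had 16.9 in COLO-205, 11.8 in DU-145 and 5.85 in SKOV-3, and its promoter member had 11.8 in COLO-205. HOXC9 and HOXC10 are neighbours in a cluster and are not independent. An assigned peak shared by COLO-205 and OVCAR-3 alone was found at 0 of the 16 genes, beside 11.7% of all genes.

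Several transcription factors of endoderm and gut had members at or near them. Of 28 genes, 6 had a promoter member (21.4%, beside 3.47% of all genes) and 11 an assigned one (39.3%, beside 11.5%). Marked in COLO-205 and DU-145 alone were 0 of the 28 promoters, beside 2.19% of all genes, a share at which a list of this size would hold few or none. GATA6, a factor of gut endoderm, had a highest promoter −log10 q of 19.2 in COLO-205, 14.5 in DU-145 and 7.77 and 9.74 in the ovarian lines. The GATA6 member of 19.2 overlapped a DU-145 peak of 7.62, and the DU-145 peak of 14.5 overlapped a member of 10.1. SOX9, a factor of crypt stem cells, had 10.8, 14.7 and 11.1 in the first 3 lines. The SOX9 promoter member had 5.46 in COLO-205 and overlapped a DU-145 peak of 6.86. The promoter member closest to an ovarian peak lay 195 bases from it at GATA6, 304 at PITX1 and 748 at SOX9.

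HHEX, a homeobox factor of liver and foregut, had a highest promoter −log10 q of 4.97 in COLO-205, 40.8 in DU-145 and 7.96 in OVCAR-3. Its promoter member had 4.72 in COLO-205 and overlapped a DU-145 peak of 5.68. The intestinal master factor CDX2 had a member 14441 bases from its start, with a fold of 9.47 and a −log10 q of 69.7 in COLO-205 and 2.24 and 5.53 in DU-145. Its promoter peak was listed in COLO-205 alone. KLF4, a factor of differentiated epithelium, had 3 assigned members. Peaks shared by COLO-205 and OVCAR-3 alone lay at the promoters of 5 of the 28 genes (17.9%, beside 3.5% of all genes) and were assigned to 5 (beside 11.7%).

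**Figure D5:**
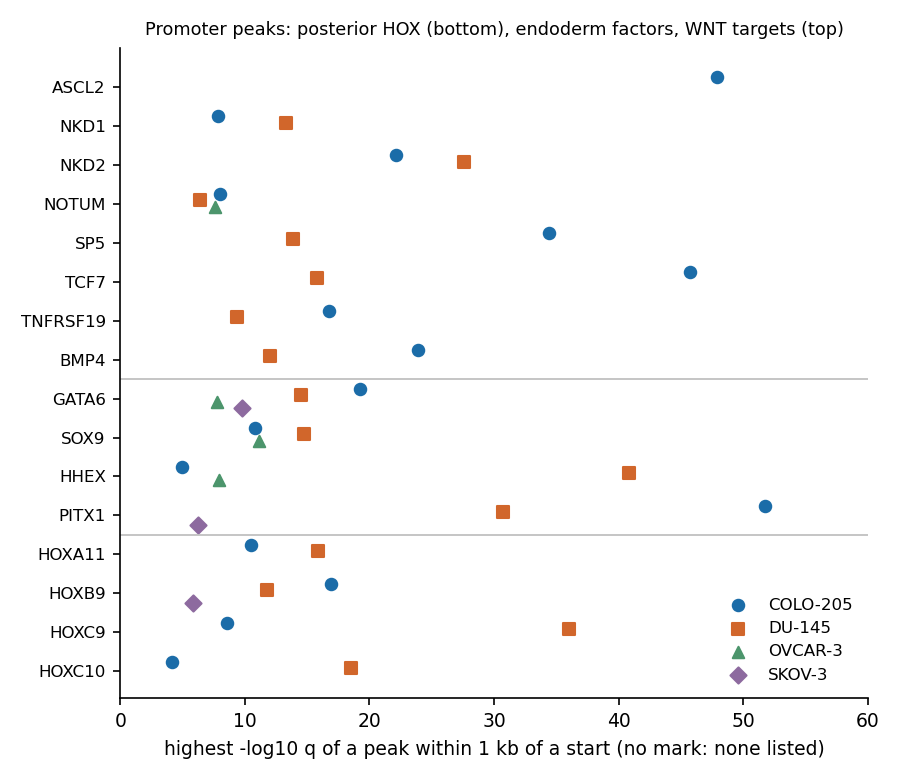
The highest −log10 q of a peak within 1 kb of a start (horizontal) is shown in each line for WNT targets (top), endoderm and gut factors (middle) and posterior HOX genes (bottom) with a promoter member or a promoter marked in COLO-205 and DU-145 alone, 4 of 6 such endoderm factors being shown, with 1 row per gene and 1 mark per line with a listed peak. From NKD1 to BMP4, all rows except NOTUM hold a COLO-205 and a DU-145 mark only, and each endoderm factor shown has at least 1 ovarian mark.

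Epithelial junction genes had assigned members at a larger share than all genes. Of 38 genes, 2 had a promoter member (5.26%, beside 3.47% of all genes) and 13 an assigned one (34.2%, beside 11.5% of all genes), and 11 (28.9%, beside 11.7%) had one shared by COLO-205 and OVCAR-3 alone. CLDN23, a claudin, was marked in COLO-205 (7.85) and DU-145 (23.4) alone. CDH3, which encodes P-cadherin, had 5.80 in COLO-205, 37.7 in DU-145 and 19.3 in OVCAR-3.

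Keratin genes, ovarian markers and cytokine genes had few members, at counts that in lists this short are near the shares of all genes (3.47% with a promoter member, 11.5% with an assigned one). No keratin gene had a promoter member and 1 of 17 (KRT18, 5.88%) had an assigned one, whereas 8 (47.1%, beside 11.7% of all genes) had an assigned peak shared by COLO-205 and OVCAR-3 alone. None of the 12 ovarian and Müllerian markers had a promoter member and 1 (LHX1, 8.33%) had an assigned one, whereas 9 (75.0%) had one shared by COLO-205 and OVCAR-3 alone. Of 26 inflammatory cytokine and NF-kB genes, 0 had a promoter member and 2 (7.69%) an assigned one. Of 22 YAP and TEAD targets, only LATS2, a kinase of the Hippo pathway, had a member at all (4.55%), and its promoter member held the repeat word.

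The remaining lists had a promoter member at 1 or 2 genes each, beside 3.47% of all genes. With 1 gene, the mesenchymal list stood at 3.57%, the TGF-beta and BMP list at 3.70%, the AP-1 and immediate early list at 4.17%, the mucin and trefoil list at 5.56% and the predicted regulators at 7.14%. With 2 genes, the NRF2 targets stood at 9.52% and the EGF family at 11.8%. TGFBI, a secreted matrix protein, was the only one of 28 mesenchymal genes with a promoter member, with 12.8 in COLO-205 and 20.9 in DU-145 and the nearest ovarian peak 103368 bases away. Among 17 EGF family genes, HBEGF had 5.34 and 17.6 and no ovarian promoter peak, and TGFA had promoter peaks in all 4 lines. Both encode ligands of the EGF receptor. BMP4 was also the only one of 27 TGF-beta and BMP genes with a promoter member.

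NQO1 and ABCC3 were the NRF2 targets with a promoter member, of 21, and both promoters also had an ovarian peak. The NQO1 promoter member held the repeat word. DUSP6, a phosphatase of ERK, was the only one of 24 AP-1 and immediate early genes with a promoter member, and its promoter was marked in every line. In the list of 18 mucin and trefoil genes, TFF2 had a promoter member, MUC20 had the most assigned members, 5, and TFF1 was the 1 gene marked in COLO-205 (13.8) and DU-145 (7.76) alone (5.56%, beside 2.19% of all genes). PITX1 was the only one of the 14 regulators predicted for the lines with a promoter member, and 6 (42.9%, beside 11.5% of all genes) had an assigned one.

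The prostate markers with a promoter member, 2 of 12 (16.7%, beside 3.47% of all genes), were TMPRSS2 and NKX3-2. TMPRSS2, a serine protease, had a highest promoter −log10 q of 38.9 in COLO-205, 6.10 in DU-145 and 10.8 in OVCAR-3. The TMPRSS2 member had 23.9 in COLO-205. NKX3-2 had 6.72 in COLO-205 and 11.5 in DU-145 alone. CD68, a lysosomal protein of macrophages, had 11.1 and 24.5 in those lines alone, while the defining leukocyte marker PTPRC had no promoter peak in any list.

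The sequence at the summits was read in windows of 300 bases of GRCh37, on both strands, for 33 short motifs. In the 3468 distal members, the share with the AP-1 letters TGANTCA was 5.998% (208 members, 95% interval 5.23 to 6.84), beside 4.88% of all distal COLO-205 peaks, 5.24% of those shared only with OVCAR-3, 4.68% of those in no other list and 7.55% of those in all 4. Read backwards the letters occurred in 2.97% of the distal members and 3.27% of all distal COLO-205 peaks. Windows on a grid over the genome, which are richer in A and T (median GC 40%), held them in 9.32%, so the share in members was above that of the list and below that of the genome. At the DU-145 summit of the same members it was 6.14%.

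For 23 of the 33 motifs, the share in all distal COLO-205 peaks lay within the counting interval of the distal members. The members were above it for AP-1, for the ZEB letters CAGGTG (46.3%, beside 43.9%) and for the longer NRF2 form of the AP-1 letters, which contains them (0.288%, beside 0.126%). They were below it for 7, among them the E-box CAGCTG (20.2%, beside 22.5%), the SOX letters ACAATGG (1.67%, beside 2.20%) and the CEBP letters TTGCNNAA (4.70%, beside 5.55%). The forkhead letters TGTTTAC (1.36%, beside 1.41%), the GATA letters AGATAA (4.61%, beside 4.83%) and the TCF and LEF letters ATCAAAG (1.27%, beside 1.45%) did not leave it. In the 734 promoter members, the share in all COLO-205 promoter peaks lay within the interval for 30 of the 33 motifs. The promoter members were above it for ZEB (35.8%, beside 28.0%), for the E-box (21.9%, beside 18.4%) and for the CEBP letters (6.27%, beside 4.38%). The last pair thus went the other way than in distal members. COLO-205 promoter peaks in no other list held these letters in 35.1%, 25.0% and 6.25%. Those shared only with OVCAR-3 held them in 33.9%, 19.9% and 5.05%. All of these shares lie within the members' intervals, so the shares were not particular to the members. A match is a string of letters and not a bound site, and these intervals are not adjusted for the 33 motifs read.

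The Alu-type word CCTGTAATCCCA was common in the distal members. It lay in 887 windows (25.6%, 95% interval 24.1 to 27.1), beside 19.7% of all distal COLO-205 peaks, 20.1% of those in no other list, 16.4% of those shared only with OVCAR-3, 4.72% of those in all 4 lists and 6.63% of genome windows. Promoter members held it in 6.40% (95% interval 4.74 to 8.42), beside 2.998% of all COLO-205 promoter peaks, 4.25% of those shared only with OVCAR-3 and 6.03% of those in no other list, the last of which lies within the interval. The distal members with the word had a median fold of 5.06 in COLO-205 and 4.67 in DU-145, beside 4.66 and 4.22 for those without it, and their summits lay 71 and 104 bases apart at the median. With all 4 lists limited to a −log10 q of at least 10 and the rule applied again, which also admits COLO-205 peaks that overlap a weaker ovarian peak, the share was 17.6% of 477 distal regions, beside 19.9% of the distal COLO-205 peaks at that threshold. Reads of such repeats can come from other copies, and how far this entered the shared peaks was not tested. Without the members that hold the word, 3268 were left, 21.0% of them at promoters, and the WNT targets, endoderm factors and posterior HOX genes with a promoter member still numbered 7, 6 and 3.

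In base composition the members were close to their list. The median GC content of the 300-base windows was 56.0% in distal members and 57.0% in all distal COLO-205 peaks, with a median of 9 CpG dinucleotides in both. Promoter members had a median GC of 67.0% and 23 CpG dinucleotides, beside 68.7% and 27 in all COLO-205 promoter peaks and 71.7% and 31 in promoter peaks of all 4 lists.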

How the data were processed

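H3K27ac ChIP-seq of 4 cell lines was analysed from the deposited peak lists, 1 library per line. The authors mapped reads to hg19 with Bowtie2 2.1.0 and called narrow peaks per library with MACS2 2.1.0.20150603 at a q-value of 0.001. Their methods describe merging of peaks less than 350 bp apart. This step is not in the deposited lists, and peaks were used as deposited. For each peak the authors deposited a score, the fold over local background, and the −log10 of the p-value and of the q-value, computed within 1 library and not scaled between libraries. Columns for position and summit were used as deposited.

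Peaks were compared by an overlap of at least 1 base. Summit pileup and background were solved from the deposited fold and −log10 p as the whole number of tags that fits within 0.001, and the ChIP tags from the smallest background value, the narrowest peak and 2.7e+09 genome positions. At least 99.9% of peaks could be solved. The scripts were tested on simulated data. Distances run from the peak's edge to the nearest of 55871 protein-coding starts in GENCODE 44 lifted to GRCh37, promoters lie within 1 kb, and members were assigned within 100 kb. In 18 gene lists, 4 older symbols had no annotated gene.

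Members and lists were chosen with earlier results of these data known. Named are the 12 promoter and 12 distal members with the highest lower percentile of −log10 q in both lines (1 per gene), the 10 genes with the most members, and list genes with a promoter member or the most members of their list. Some genes and sequences that this rule names are not reported here. CDX2, AXIN2, NKD1, KLF4, HOXC10 and TFF1 and the markers at 0 were named after their values were seen. No test across lines was made. Shares have exact Clopper-Pearson 95% intervals, which cover counting error only, as PCR reads are not independent molecules. Alternatives changed the threshold, overlap, merging, list size, lists, chromosomes, side, promoter distance and window. Leaving out the repeat word, 20 words in its place, and the threshold for gene lists were added after the data were seen. Sequence was read with samtools 1.23.1, and values were computed in Python 3.11.15 with pandas 2.3.3, scipy 1.17.1 and numpy 2.4.6 and drawn with matplotlib 3.10.9.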

Additional observations from a re-analysis of the deposited data

How the results depend on the processing

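No paired analysis was possible because each line has a single library. For the same reason the cause of any change below was not tested, and the number of peaks called in each line limits what can be seen. The number of members fell from 4202 to 726 with a −log10 q of at least 10 in all lists and to 270 with 14001 peaks in every list. The share at promoters, 17.5%, was 34.3% and 58.1% under these settings (all COLO-205 peaks 14.3%, then 22.5% and 30.9%), 15.6% after merging (13.5%), 14.6% with ovarian peaks widened by 350 bases, 15.6% on the DU-145 side, 21.0% without the repeat word and 24.5% within 2.5 kb (18.0%). The median fold, 4.64, was 4.76 at a −log10 q of at least 5 and 4.71 with widened ovarian peaks, and the median −log10 q, 7.92, was 8.35 at that threshold. In a 200-base window the AP-1 share of distal members was 3.403% (all distal COLO-205 peaks 2.78%) and the repeat word share 17.5% (12.7%). With any of the 20 most frequent words it was 42.6% (34.3%), and at a −log10 q of at least 10 it was 17.6% (19.9%), below the list. At that threshold chromosome 5 held 11.3% (5.88%) and chromosome 14 held 8.13% (1.81%). Of 64 alternatives computed, 46 stayed within the counting interval, or for counts within 1.5 times, of the value above, among them all those for the WNT targets, endoderm factors and posterior HOX genes with a promoter member, which ranged from 5 to 7, 5 to 6 and 2 to 4.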
